A study of Mus musculus with 10 samples.

Results

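Surfactant and alveolar type 2 genes were followed here through 10 RNA-seq libraries of mouse lung. The set held 10 genes, namely Sftpa1, Sftpb, Sftpc, Sftpd, Abca3, Lamp3, Napsa, Slc34a2, Lpcat1 and Nkx2-1, which were found in the table by gene symbol. They had 13 transcript rows among the 66548 rows and 24394 gene symbols of the deposited table. All 10 genes passed the filter of a mean of at least 1 FPKM (mapped fragments in relation to transcript length and to the size of the library), although Abca3 and Nkx2-1 lay close to it.

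All libraries came from whole lung of BALB/c mice, which were female and bought at 8 weeks of age. Saline mice (n = 3) were controls without allergen. OVA mice (n = 3) were sensitized by injection of the egg protein ovalbumin with alum on Days 0 and 7 and then challenged through the nose for 4 days from Day 12, which provokes an allergic airway inflammation used as a model of asthma. Herb mice (n = 4) went through the same ovalbumin protocol and received DSE, an ethanol extract of Descurainia sophia seeds, by mouth at 200 mg/kg from Day 9 to Day 15. No group received the extract without ovalbumin, and whether Saline and OVA mice were given the vehicle of the extract is not clear from the sources used here. All values are of bulk tissue, in which fewer cells of a type and less RNA per cell cannot be told apart.

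Alveolar type 2 cells line the air sacs of the lung and make surfactant, the film of phospholipid and protein that lowers surface tension and keeps the air sacs open. Surfactant is assembled and stored in lamellar bodies, which are organelles related to lysosomes, and is released by exocytosis. The hydrophobic proteins SP-B and SP-C spread the lipid film, whereas the collectins SP-A and SP-D bind microbes and help to clear them. The transcription factor NKX2-1 controls many of these genes.

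The bases directly upstream of 3 members are shown because these genes, a collectin, a hydrophobic surfactant protein and a lamellar body protein, were lower in OVA mice under every scaling tried. The windows hold the 250 bases before the annotated start and are RefSeq sequences of GRCm38.p6 (the mm10 assembly), written 5′ to 3′ on the strand of the gene. Capitals mark matches on either strand. The NKX2-type letters were CTCAAG and the motif CAAGTG, whose first letters are the last letters of the former, so that matches can overlap. The TATA-type letters were TATAAN. The FOXA-type letters were TGTTTAC or, in a variant, TGTTTGC. Sftpa1 is on the plus strand at chr14:41131538-41131787, Sftpb on the plus strand at chr6:72304360-72304609 and Lamp3 on the minus strand at chr16:19706366-19706615.
Sftpa1: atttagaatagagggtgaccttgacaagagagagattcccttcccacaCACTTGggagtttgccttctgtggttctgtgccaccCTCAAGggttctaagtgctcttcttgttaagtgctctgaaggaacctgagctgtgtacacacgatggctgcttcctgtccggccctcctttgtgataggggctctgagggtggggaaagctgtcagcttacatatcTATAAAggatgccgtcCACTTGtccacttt
Sftpb: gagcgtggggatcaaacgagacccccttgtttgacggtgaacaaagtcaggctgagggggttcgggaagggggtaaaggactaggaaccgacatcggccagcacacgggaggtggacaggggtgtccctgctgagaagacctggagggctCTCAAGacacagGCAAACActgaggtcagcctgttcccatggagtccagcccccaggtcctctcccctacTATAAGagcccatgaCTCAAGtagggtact
Lamp3: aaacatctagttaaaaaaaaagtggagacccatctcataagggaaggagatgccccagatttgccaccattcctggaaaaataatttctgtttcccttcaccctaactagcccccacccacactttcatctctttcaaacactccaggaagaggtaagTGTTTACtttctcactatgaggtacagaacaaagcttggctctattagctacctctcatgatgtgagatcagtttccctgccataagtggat

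Sftpa1 and Sftpb both carried a TATA-type match that began 30 bases before the start. Sftpb held CTCAAG at 100 and at 15 bases before the start, and Sftpa1 held CTCAAG at 166 bases before it. On the opposite strand, Sftpa1 also held CAAGTG at 202 and at 14 bases, and Sftpb held the FOXA-type variant at 88 bases. Lamp3 held neither NKX2-type match nor a TATA-type match and had the first FOXA-type motif 92 bases before its start. Among all 32851 windows of this length, 13.3% held CTCAAG and 11.6% held CAAGTG. The TATA-type letters were in 22.7% of the windows, TGTTTAC in 3.17% and its variant in 4.3%. A window was on hand for 7 of the 10 members, and none of the 5 motifs occurred in those of Abca3, Slc34a2, Lpcat1 and Nkx2-1. These matches are letters in a window, and no binding was measured.

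The libraries differed in what their FPKM was spent on. Rows of protein-coding RefSeq transcripts took up 19.9% ± 1.38 (SD, n = 3) of the summed FPKM in Saline, 4.13% ± 0.687 (n = 3) in OVA and 10.2% ± 2.36 (n = 4) in Herb. The ranges did not overlap, and two-sided exact permutation tests gave p = 0.1 between OVA and Saline and p = 0.0571 in both Herb comparisons, which are the smallest values these group sizes allow. FPKM shares out the fragments of a library among all its rows. The median of all genes fell by 0.75 on the log2 scale in OVA vs. Saline and rose by 0.48 in Herb vs. OVA. The fold changes are therefore given as deposited and again after each library was rescaled to a common 75th percentile of its gene values, which brought the median of all genes to 0.08 and 0.01. The depth was not on hand, and the steps between the lowest values gave an estimate of 15100000 to 29250000 fragments per library. These steps were faint and were sought within a preset range only, so the estimate is rough.

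The members covered a wide range of levels in Saline lung. Sftpc led with 2870 ± 445 FPKM (SD, n = 3), followed by Sftpa1 with 630 ± 59.8 and Sftpd with 327 ± 38.4, and the ranges of these 3 did not overlap. Lamp3, Napsa, Sftpb and Lpcat1 lay between 39.2 and 81.0 FPKM on average, where Lamp3 overlapped with Napsa and Napsa with Sftpb. Slc34a2 had 9.41 ± 5.28 FPKM, and Abca3 and Nkx2-1 averaged 1.28 and 1.13 FPKM with overlapping ranges. In OVA the order of the first 3 genes was the same, but the ranges of Sftpa1 and Sftpd overlapped, and Lamp3 moved from the fourth to the seventh place with a range that overlapped those of Sftpb and Slc34a2. Together the 10 genes summed to 3446 to 4507 FPKM in Saline, 489 to 840 FPKM in OVA and 1111 to 2037 FPKM in Herb. As a share of the protein-coding FPKM, the sum was 2.94% ± 0.429 in Saline, 1.3002% ± 0.328 in OVA and 1.798% ± 0.326 in Herb.

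**Figure D1:**
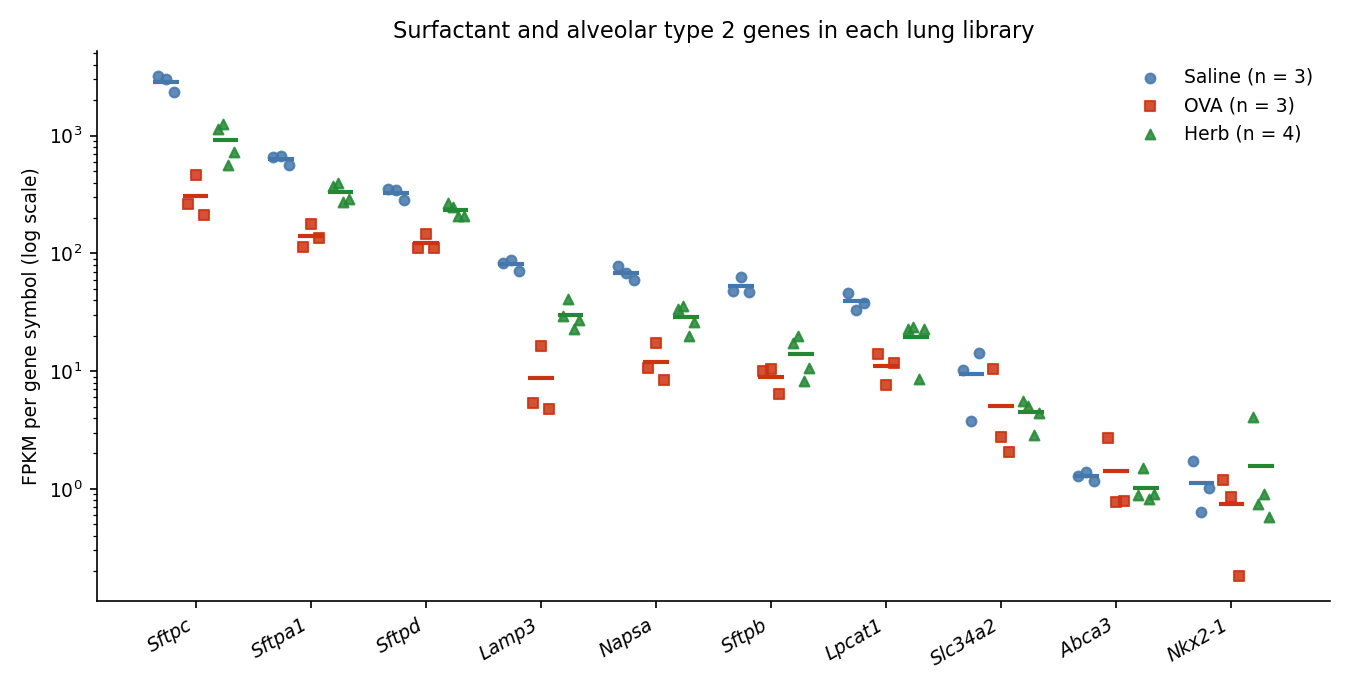
Level of the 10 genes in each library, as FPKM summed per gene symbol on a log axis, with 1 point per library and a bar at the group mean. From Sftpc to Napsa the 3 Saline points lie highest, the 3 OVA points lowest and the 4 Herb points between them, whereas the groups overlap for Slc34a2, Abca3 and Nkx2-1.

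Sftpc (chr14:70520941-70524081, 1 row) encodes SP-C, a small membrane peptide made almost only by alveolar type 2 cells. In order of their replicate numbers, Saline libraries held 3228, 3010 and 2371 FPKM, OVA libraries 261, 460 and 210.0 FPKM and Herb libraries 1141, 1268, 564 and 727 FPKM. The 3 groups did not overlap, and Herb 1 and Herb 2 lay above Herb 3 and Herb 4. Sftpc was 9.25-fold lower in OVA than in Saline by group means. The log2(FPKM + 1) difference was -3.27 ± 0.39 (SE; limma adjusted p = 0.000171). Herb exceeded OVA by 1.58 ± 0.36 on that scale (limma adjusted p = 0.00999) and the difference in Herb vs. Saline was -1.70 ± 0.36 (limma adjusted p = 0.0138).

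Sftpb (chr6:72304610-72314373, 2 rows) encodes SP-B, without which newborn mice cannot breathe. Saline libraries had 48.0, 63.4 and 47.4 FPKM, OVA libraries 10.1, 10.5 and 6.34 FPKM and Herb libraries 17.3, 19.96, 8.17 and 10.6 FPKM. Both ovalbumin groups lay below every Saline library, but Herb 3 and Herb 4 lay within or next to the OVA values. The difference was -2.45 ± 0.33 in OVA vs. Saline (limma adjusted p = 0.000254) and -1.91 ± 0.30 in Herb vs. Saline (limma adjusted p = 0.0083). In Herb vs. OVA it was 0.54 ± 0.30, with a 95% interval from -0.15 to 1.23, which did not pass the test (limma adjusted p = 0.175). The 2 rows of the gene were unequal in this respect. NM_147779 supplied 78.8% to 87.6% of the sum in Saline, 53.9% to 60.0% in OVA and 58.1% to 67.7% in Herb. In the fit of single rows, NM_147779 fell by 2.88 and NM_001282071 fell by 1.05 on the log2 scale in OVA vs. Saline (limma adjusted p = 0.000598 and 0.00516). How the fragments were divided between overlapping transcripts of 1 gene is itself an estimate of the quantification.

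Sftpa1 (chr14:41131788-41136373, 1 row) encodes SP-A, a collectin that binds surfactant lipid and microbes. Saline libraries gave 658, 670 and 561 FPKM, OVA libraries 113, 178 and 134 FPKM and Herb libraries 372, 394, 274 and 291 FPKM. No library of 1 group reached into another. The differences were -2.16 ± 0.23 in OVA vs. Saline, 1.23 ± 0.22 in Herb vs. OVA and -0.93 ± 0.22 in Herb vs. Saline (limma adjusted p = 0.000151, 0.00716 and 0.0184).

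Sftpd (chr14:41172212-41185198, 1 row) encodes SP-D, the other lung collectin, which is also made by club cells of the airway. Saline libraries reached 352, 345 and 282 FPKM, OVA libraries 110, 145 and 111 FPKM and Herb libraries 269, 248, 209 and 210 FPKM. Its OVA mean was 2.67-fold below the Saline mean, the narrowest gap among the 7 members that passed the test in this comparison. The differences were -1.42 ± 0.20 in OVA vs. Saline and 0.93 ± 0.18 in Herb vs. OVA (limma adjusted p = 0.000313 and 0.00735). In Herb vs. Saline the difference was -0.48 ± 0.18 (limma adjusted p = 0.0832), although the highest Herb library still lay below the lowest Saline library.

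Lamp3 (chr16:19653381-19706365, 1 row), also known as DC-LAMP, encodes a glycoprotein of the lamellar body membrane. Saline libraries stood at 83.3, 88.7 and 71.1 FPKM, OVA libraries 5.36, 16.4 and 4.75 FPKM and Herb libraries 29.1, 40.7, 22.7 and 27.2 FPKM. OVA 2 lay well above the other OVA libraries and still below every Herb library. The differences were -3.25 ± 0.39 in OVA vs. Saline, 1.82 ± 0.37 in Herb vs. OVA and -1.43 ± 0.37 in Herb vs. Saline (limma adjusted p = 0.000183, 0.0077 and 0.0242).

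Napsa (chr7:44572445-44586846, 1 row) encodes napsin A, an aspartic protease that takes part in the maturation of SP-B. Saline libraries showed 78.1, 68.1 and 59.0 FPKM, OVA libraries 10.6, 17.2 and 8.39 FPKM and Herb libraries 34.0, 35.8, 20.01 and 26.2 FPKM. The 3 groups did not overlap, and the lowest Herb library, Herb 3, was close to OVA 2. The differences were -2.46 ± 0.29, 1.22 ± 0.27 and -1.23 ± 0.27 in OVA vs. Saline, Herb vs. OVA and Herb vs. Saline (limma adjusted p = 0.000171, 0.00922 and 0.0151).

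Lpcat1 (1 row) encodes the acyltransferase that makes the disaturated phosphatidylcholine of surfactant. Saline libraries held 46.2, 33.1 and 38.1 FPKM, OVA libraries 13.9, 7.67 and 11.7 FPKM and Herb libraries 22.8, 23.7, 8.63 and 22.6 FPKM. Herb 3 lay among the OVA libraries, while the other 3 Herb libraries were above them. Lpcat1 was lower in OVA than in Saline by -1.76 ± 0.37 (limma adjusted p = 0.00285). The differences of 0.70 ± 0.35 in Herb vs. OVA and -1.06 ± 0.35 in Herb vs. Saline did not pass the test (limma adjusted p = 0.129 and 0.0522). Without Herb 3 the former was among 6 members called higher, where 5013 of 11205 genes were.

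The other members were low in the rows that carry their symbol, and as deposited none passed the test in any of the 3 comparisons with all libraries weighted equally. Slc34a2 (chr5:53049353-53071664, 1 row), which encodes the phosphate transporter NaPi-IIb, had 10.3, 3.76 and 14.2 FPKM in the Saline mice, 10.4, 2.77 and 2.08 FPKM in the OVA mice and 5.54, 5.11, 2.85 and 4.39 FPKM in the Herb mice. Abca3 (chr17:24351921-24410204, 2 rows), which encodes the transporter that loads phospholipid into lamellar bodies, ranged from 1.16 to 1.38 FPKM in Saline, from 0.776 to 2.69 FPKM in OVA and from 0.821 to 1.50 FPKM in Herb. Nkx2-1 (2 rows) ranged from 0.639 to 1.73 FPKM in Saline, from 0.182 to 1.19 FPKM in OVA and from 0.575 to 4.05 FPKM in Herb. Their groups overlapped in each comparison. The 95% intervals of the OVA vs. Saline difference were -2.10 to 0.35 for Slc34a2, -0.62 to 0.62 for Abca3 and -1.30 to 0.70 for Nkx2-1. The Slc34a2 value rested on OVA 1, the OVA library with the highest value. Without OVA 1 Slc34a2 was called lower at -1.46, and with array weights at -1.32 (limma adjusted p = 0.0256 and 0.0396). The 4 single rows of Abca3 and Nkx2-1 missed the filter of 1 FPKM, and 3 of them were listed at 0 in 1 or more libraries.

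Much of the signal at several of these loci stood in rows without a symbol. The authors' table also holds transcript models assembled from the reads, and models whose assembly locus has 2 or more models and stands directly beside the rows of a member were added to it as an alternative chosen after the data were seen. The models have no coordinates or strand in the table, so that their placement rests on the order of the rows alone. They held 97.6% of the summed FPKM at Abca3 (5 models), 92.7% at Slc34a2 (2 models), 89.0% at Nkx2-1 (8 models) and 78.0% at Sftpb (5 models), against 19.7% at Lpcat1, 15.7% at Napsa, 0.778% at Sftpc and none at Sftpa1, Sftpd and Lamp3.

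With its 2 models, the level of Slc34a2 was 152, 135 and 141 FPKM in the Saline mice, 28.8, 46.1 and 19.96 FPKM in the OVA mice and 87.5, 96.7, 57.8 and 71.6 FPKM in the Herb mice. The 3 groups then did not overlap, and the differences were -2.22 in OVA vs. Saline, 1.34 in Herb vs. OVA and -0.88 in Herb vs. Saline (limma adjusted p = 0.000273, 0.00813 and 0.0469). Abca3 with its models reached 58.1 to 65.3 FPKM in Saline, 29.9 to 41.0 FPKM in OVA and 49.0 to 63.7 FPKM in Herb. That is a 1.75-fold gap between the Saline and OVA means (difference -0.80, limma adjusted p = 0.00297), with Herb overlapping Saline. Nkx2-1 with its models was lower in OVA by -1.60 (limma adjusted p = 0.00568), at 8.89 to 24.4 FPKM in Saline and 3.59 to 7.43 FPKM in OVA. A single model held 17.0 FPKM of this in Saline 1 and 14.3 FPKM in Saline 2. That model was at 0 in Saline 3 and at most at 2.81 FPKM in any OVA or Herb library. After rescaling, the Nkx2-1 difference with models was -0.57 and was not called (limma adjusted p = 0.217). Sftpb with its models had 193 to 204 FPKM in Saline, 34.3 to 69.2 FPKM in OVA and 66.1 to 111 FPKM in Herb. After rescaling, its OVA vs. Saline difference was -0.75 with models (limma adjusted p = 0.0412), against -1.36 from its symbol rows alone. At Lpcat1, the model before the row was at 7.66 FPKM in Saline 3, 11.4 FPKM in OVA 2 and 9.70 FPKM in Herb 3 and at or near 0 in the other 7 libraries. OVA 2 and Herb 3 were the libraries with the lowest Lpcat1 row of their groups, and with both models Herb 3 rose from 8.63 to 22.2 FPKM, next to 25.3 to 28.0 FPKM in the other Herb libraries. In this form all 10 members were lower in OVA vs. Saline, 7 were higher in Herb vs. OVA and 7 were lower in Herb vs. Saline, against 57.9%, 44% and 22.8% of all genes. Models were added to the members alone. The shares of all genes, here and after rescaling, rest on symbol rows and are not a like measure. After rescaling in this form, 6 were lower in OVA vs. Saline and 2 in Herb vs. Saline, against 17.2% and 5.08% of all genes. In Herb vs. OVA limma then called none (4 at an unadjusted p under 0.05), against 0.348% of all genes called higher.

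**Figure D2:**
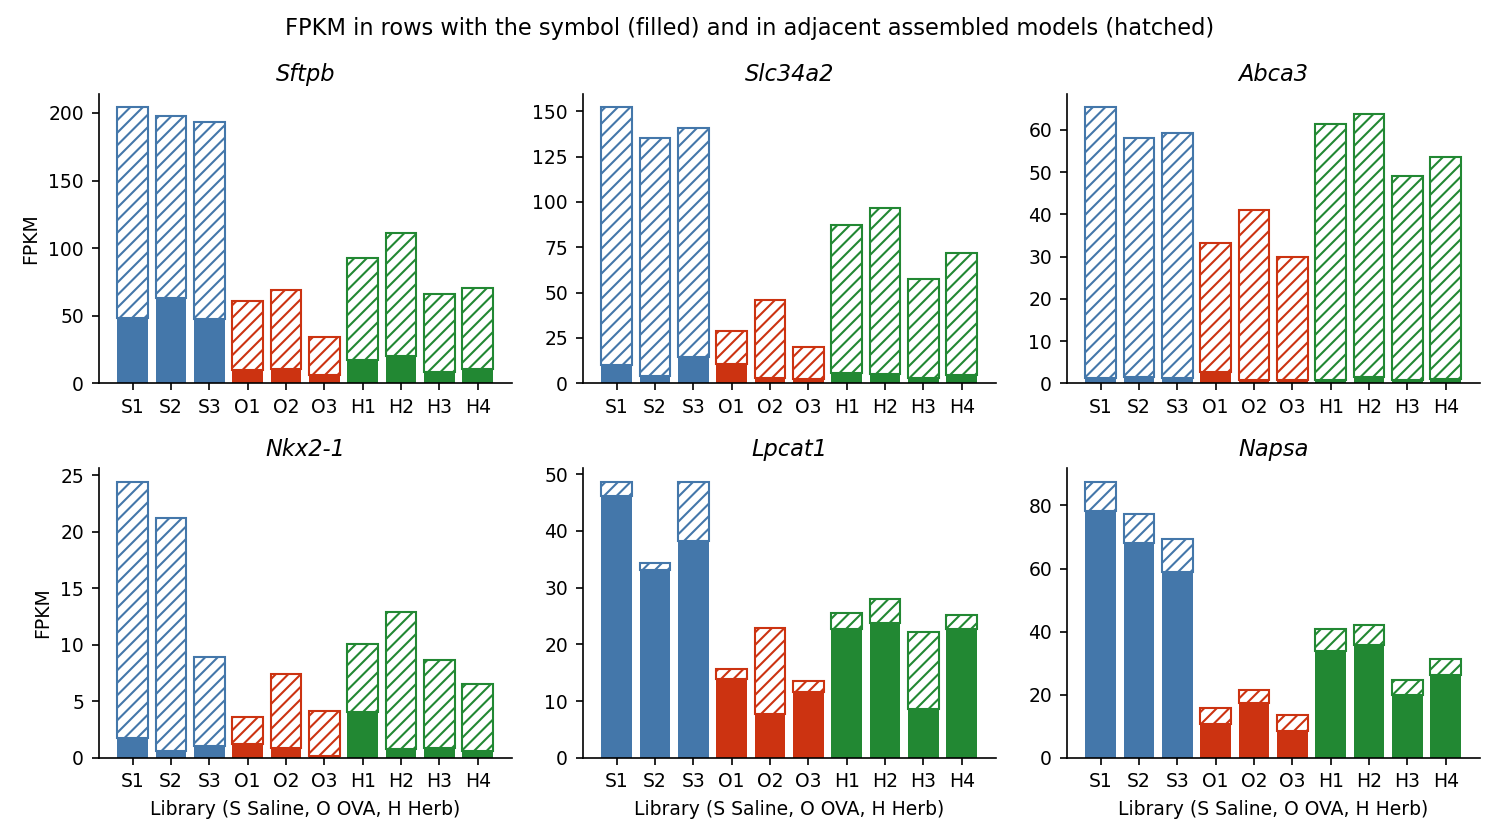
FPKM of 6 members in each library, split into rows that carry the gene symbol (filled bars) and assembled models standing beside them in the table (hatched bars, stacked). At Slc34a2, Abca3, Nkx2-1 and Sftpb most of the FPKM is in the hatched part, and the 3 OVA bars of Slc34a2 reach 19.96 to 46.1 FPKM, against 135 to 152 FPKM in Saline.

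The first comparison asked what ovalbumin-induced inflammation did to these genes. In OVA vs. Saline 7 of 10 members were lower and none was higher as deposited, where 57.9% of all 11205 genes tested were lower. The median difference was -1.96 for the members and -0.75 for all genes. Abundant genes fell more than the rest. Of the 520 genes averaging 20 FPKM or more, 458 were lower, with a median of -2.03. The 7 members among them were all lower, with a median of -2.45. In 7 members every OVA library was below every Saline library, as it was for 63% of all genes. In the fit of single rows, 8 of the 9 member rows tested were lower, against 41.1% of all rows. After rescaling, 5 members were lower, namely Sftpc, Lamp3, Sftpb, Napsa and Sftpa1, against 17.2% of all genes. Their rescaled differences were -2.11, -2.17, -1.36, -1.35 and -1.01 (limma adjusted p = 0.00169 to 0.00569). Those 5 passed the test under each of the 21 alternatives that were run for them, including a common protein-coding sum and quantile normalization. Rescaling did not remove the larger fall of abundant genes. Of the 520 genes averaging 20 FPKM or more, 319 were lower after rescaling, with a median of -0.94. Of the 7 members among them 5 were lower, with a median of -1.35, in a setting chosen after the data were seen. The members that had no call after rescaling were Sftpd with -0.26 (95% interval -0.60 to 0.08) and Lpcat1 with -0.65 (-1.46 to 0.15), and under a common protein-coding sum Sftpd turned to 0.12 (limma adjusted p = 0.578).

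The second comparison asked how the extract changed the genes in ovalbumin-treated mice. In Herb vs. OVA 5 members were higher as deposited, namely Sftpa1, Sftpc, Sftpd, Lamp3 and Napsa, and none was lower, where 44% of all genes were higher. The same 5 had every Herb library above every OVA library, as 49.6% of all genes did. Among the 520 genes averaging 20 FPKM or more, 424 were higher, with a median of 1.16. Of the 7 members at that level 5 were higher, with a median of 1.22, so their rise was near that of other abundant genes. Among the 9 single rows 5 were higher, against 31.7% of all rows. After rescaling, limma called none of the 10 members, against 0.348% of all genes called higher. At an unadjusted p under 0.05, 4 members were higher in that form. Their rescaled differences were 0.89 for Sftpc, 1.21 for Lamp3, 0.58 for Napsa and 0.55 for Sftpa1 (limma adjusted p = 0.0767 to 0.131), and that of Sftpd was 0.25 (95% interval -0.06 to 0.57). Without OVA 1 limma called none of the 9 single rows, with 5 of them at an unadjusted p under 0.05, while the count over gene sums stayed at 5. Of all 30194 rows, 186 were then called higher, down from 9583, and of all 11205 genes 3200, down from 4932.

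The last comparison set the extract-treated mice against the controls. In Herb vs. Saline 5 members were lower, namely Sftpa1, Sftpb, Sftpc, Lamp3 and Napsa, against 22.7% of all genes, and none was higher. In 7 members every Herb library was below every Saline library, against 36.6% of all genes. Among the 520 genes averaging 20 FPKM or more, 290 were lower, with a median of -0.90. Of the 7 members at that level 6 were lower, with a median of -1.24. Of the single rows 5 were lower, against 6.26% of all rows. After rescaling, Sftpb with -1.45, Sftpc with -1.22 and Napsa with -0.77 were lower (limma adjusted p = 0.0147, 0.0306 and 0.0426), against 5.09% of all genes. With its assembled models the rescaled Sftpb difference was -0.77 and was not called (limma adjusted p = 0.0573). The count as deposited changed with the libraries, since it was 1 without Saline 2, 2 without Saline 1 and 3 without Herb 4. The number lower among all 11205 genes fell as well, from 2549 to 788, 1302 and 1415 in these fits. At an unadjusted p under 0.05 stood 7, 5 and 6 members in them, and 3803, 3836 and 3942 of all genes. OVA libraries enter the first 2 comparisons and Saline libraries the first and the last, so their fold changes are not independent of each other. Within Herb, Herb 2 had both the highest protein-coding share (13.6%) and the highest Sftpc, and Herb 3 the lowest of both (8.44%). The part of the protein-coding share in the differences was not tested.

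**Figure D3:**
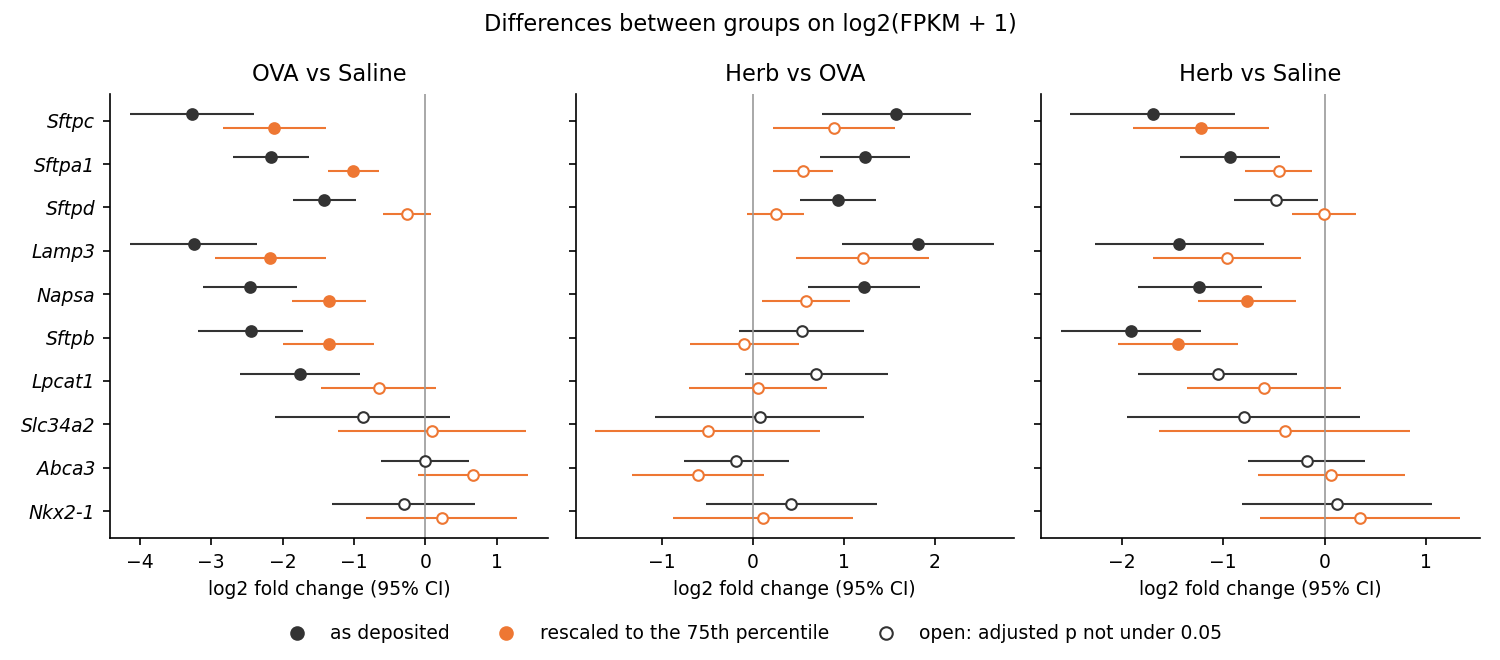
Differences of the 10 members on log2(FPKM + 1) in the 3 comparisons with 95% confidence intervals, as deposited (dark) and after bringing all libraries to 1 common 75th percentile (orange). Filled points passed an adjusted p under 0.05, and rescaling moved OVA vs. Saline towards 0 with 5 members still lower, and left no filled orange point in Herb vs. OVA.

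Ratios between members within a library do not change when all its values are multiplied by the same factor, although quantile normalization can change them. Sftpd served as the denominator because it had the narrowest gap between OVA and Saline among the called members, so that a lower mean ratio in OVA is largely fixed by this choice and the ratios are a description only. Sftpc stood at 8.40 to 9.16 times Sftpd in Saline, at 1.90 to 3.17 times in OVA and at 2.70 to 5.12 times in Herb. Sftpa1 stood at 1.87 to 1.99 times Sftpd in Saline, 1.02 to 1.23 times in OVA and 1.31 to 1.59 times in Herb, without overlap between groups. The ratio of Lamp3 to Sftpd was 0.236 to 0.257 in Saline, 0.0429 to 0.113 in OVA and 0.108 to 0.164 in Herb. The Saline libraries were above both other groups in the ratios of Sftpc, Sftpa1, Lamp3, Napsa and Sftpb. Between OVA and Herb, the ratio of Sftpa1 was free of overlap, whereas the ratios of Sftpc, Lamp3, Napsa and Sftpb overlapped. No test was run on these ratios.

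**Figure D4:**
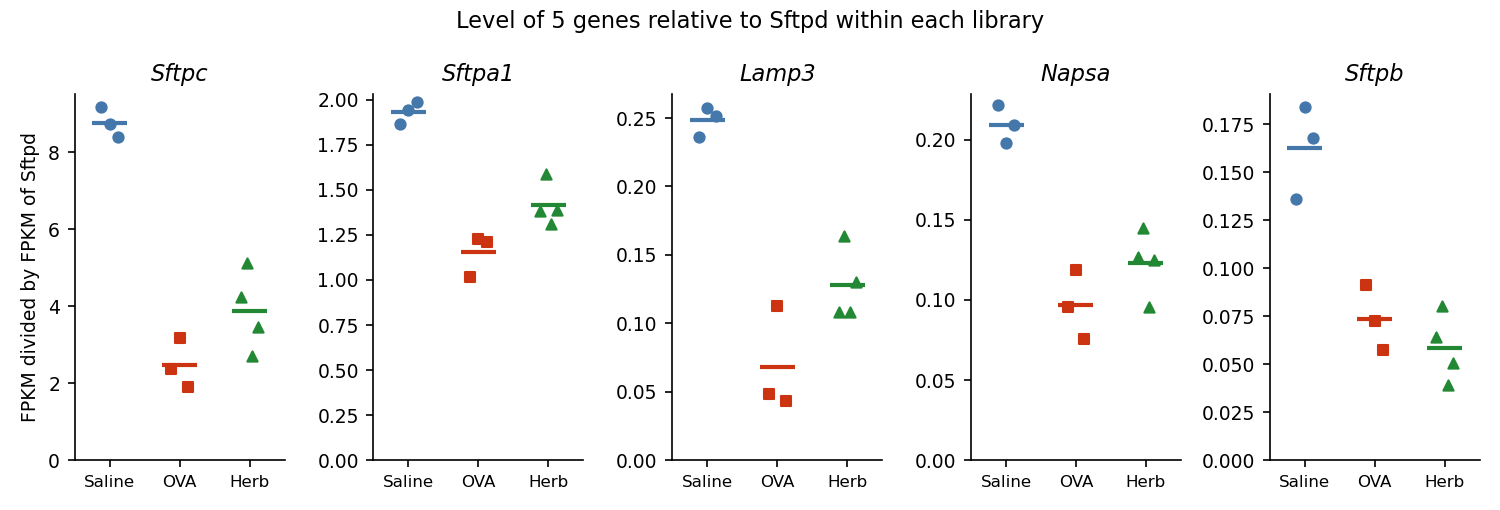
FPKM of 5 members divided by the FPKM of Sftpd in the same library, with 1 point per library, a bar at the group mean and each panel on its own linear axis starting at 0. Sftpd was chosen for its narrow gap between OVA and Saline, the Saline points lie above all OVA and Herb points in each panel, and the Sftpb panel is the one in which the Herb mean is below the OVA mean.

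Across the 10 libraries the abundant members moved closely with each other. Pearson's r of log2(FPKM + 1) was 0.998 between Sftpc and Napsa, 0.984 between Sftpc and Sftpa1 and 0.940 between Sftpc and Sftpb. The low Abca3 rows had r = 0.03 with Sftpc and the Nkx2-1 rows r = 0.33. These coefficients are a description, since all 10 points share the groups and the protein-coding share of their library. The genes most like the mean of the members, out of 3947 other genes with a mean of at least 5 FPKM, were Xpc, Dync1li2, Atrnl1, Trp53bp2 and Tnfaip1, with r from 0.983 to 0.985, where the median gene had r = 0.83. For Sftpc alone they were Itgb1, S100a10, Serpinb9, Zmpste24 and F2r with r from 0.995 to 0.996, where the median gene had r = 0.894. After rescaling, the genes most like the members' mean were Dync1li2, Lgi3, Pdcl3, Lhfp and Wnk1, with r from 0.9575 to 0.9696, and the median gene was at r = 0.193. Of these, Lgi3 is on the list of alveolar type 2 markers. For Sftpc alone they were then Ctla2a, Itgb1, Zmpste24, Cryab and Serpinb9, with r from 0.990 to 0.994 and the median gene at 0.282. None of the latter is on that list.

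Other genes of the surfactant pathway were read out in the same fit from lists chosen with earlier results of these data known. Of 9 tested genes of phospholipid and fatty acid synthesis, 8 were lower in OVA vs. Saline and 6 were higher in Herb vs. OVA, against 57.9% and 44% of all genes. Chpt1, which completes the synthesis of phosphatidylcholine, stood at 27.0 ± 3.27 FPKM in Saline, 4.16 ± 0.981 FPKM in OVA and 9.35 ± 4.03 FPKM in Herb. Its differences were -2.45 in OVA vs. Saline and 0.92 in Herb vs. OVA (limma adjusted p = 0.000362 and 0.0471). Cept1, an enzyme of the same final step, fell by 1.83 and the desaturase gene Scd1 fell by 1.67 on the log2 scale in OVA vs. Saline (limma adjusted p = 0.000171 and 0.0246). In Herb vs. OVA, Scd1 rose by 1.76 and the fatty acid binding protein gene Fabp5 by 0.93 (limma adjusted p = 0.0223 and 0.0132), and Scd1 was uneven in Herb at 10.6 ± 9.16 FPKM. Acaca was listed at 0 in all 10 libraries, as was Gapdh in 9 of them, so that an exact 0 in this table can be a failed estimate.

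Of 6 tested genes of surfactant protein processing and lamellar body trafficking, 4 were lower in OVA vs. Saline, a share near the 57.9% of all genes, and 2 were higher in Herb vs. OVA, a share below the 44% of all genes. Prdx6, a peroxiredoxin whose phospholipase activity serves surfactant turnover, averaged 19.0 ± 2.21 FPKM in the controls, 3.27 ± 0.553 FPKM after ovalbumin and 6.96 ± 1.77 FPKM with the extract. Its differences were -2.23 in OVA vs. Saline and 0.88 in Herb vs. OVA (limma adjusted p = 0.000139 and 0.00846). The flippase gene Atp11a fell by 2.04, and Rab38, a small GTPase of lamellar bodies, fell by 0.76 on the log2 scale in OVA vs. Saline (limma adjusted p = 0.00046 and 0.00282). Rab38 rose by 0.54 in Herb vs. OVA (limma adjusted p = 0.0196). The medians of all genes were -0.75 in OVA vs. Saline and 0.48 in Herb vs. OVA, close to the values of Rab38.

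Of 7 tested transcription factors of alveolar epithelium, 6 were lower in OVA vs. Saline, against 57.9% of all genes, and 3 were higher in Herb vs. OVA, a share near the 44% of all genes. Etv5, which maintains alveolar type 2 cells, fell by 1.83, Tfcp2l1 fell by 1.36 and Foxa2 fell by 0.89 on the log2 scale in OVA vs. Saline (limma adjusted p = 0.00039, 0.00136 and 0.000183). The median of all genes was -0.75 in that comparison, close to the value of Foxa2. Etv5 rose by 1.04 and Tfcp2l1 by 1.13 in Herb vs. OVA (limma adjusted p = 0.0114 and 0.00796). Of 4 tested receptors of surfactant homeostasis, Adgrf5, a receptor that restrains the surfactant pool, was the 1 gene called in OVA vs. Saline, at -2.21 (limma adjusted p = 0.0026), and in Herb vs. OVA limma called 0 of the 4, with 0 at an unadjusted p under 0.05.

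Of 12 other alveolar type 2 markers, 11 were lower in OVA vs. Saline and 11 were higher in Herb vs. OVA, against 57.9% and 44% of all genes. The medians of the list were -1.85 and 1.13, next to -0.75 and 0.48 for all genes. For genes averaging 20 FPKM or more, which include some of these markers, the medians were -2.03 and 1.16. S100g fell by 3.21, the tight junction gene Cldn18 fell by 3.12 and the lysozyme gene Lyz2 fell by 3.10 on the log2 scale in OVA vs. Saline (limma adjusted p = 0.000149, 0.00112 and 0.00104). Lyz2, which macrophages express too, rose by 2.02 and Cldn18 by 1.84 in Herb vs. OVA (limma adjusted p = 0.0137 and 0.0204). After rescaling, the number lower in OVA vs. Saline was 3 of 9 for phospholipid synthesis, 2 of 6 for processing and trafficking, 1 of 7 for the transcription factors, 0 of 4 for the receptors and 6 of 12 for the markers, while 3 of 6 processing genes and 2 of 4 receptors were higher. Of all genes, 17.2% were lower and 24.1% higher in that form. In Herb vs. OVA limma then called no gene of these lists, and at an unadjusted p under 0.05 stood 1, 2, 3, 0 and 4 of them in the same order of lists.

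Markers of other lung cells differed between the groups as well, but not all in 1 direction. The summed level of the 7 alveolar type 1 markers was 786 to 929 FPKM in Saline, 60.0 to 188 FPKM in OVA and 208 to 460 FPKM in Herb, and 6 of 6 tested were lower in OVA vs. Saline. Of all genes tested, 57.9% were lower in that comparison, and of the 520 genes averaging 20 FPKM or more 458 were. The 3 club cell markers went from 13250 to 23458 FPKM in Saline to 2685 to 5296 FPKM in OVA, with 3 of 3 lower, and the 4 endothelial markers from 305 to 379 FPKM to 61.0 to 93.5 FPKM, with 4 of 4 lower. Of 5 markers shared by lung epithelia 4 were lower. The counts lower in the other lists were near or below the share of all genes. Of 4 mesenchymal markers 2 were lower, with sums of 99.2 to 129 FPKM in Saline, 41.9 to 60.3 FPKM in OVA and 66.1 to 103 FPKM in Herb, and 2 of 4 tested leukocyte markers were lower. Of 4 ciliated cell markers none was lower and 1, Foxj1, was higher, where 368 of all 11205 genes were higher. The 5 macrophage markers summed to 97.6 to 207 FPKM in Saline, 83.3 to 283 FPKM in OVA and 355 to 626 FPKM in Herb, with 1 of 4 tested lower in OVA vs. Saline and 3 of 4 higher in Herb vs. OVA, where 44% of all genes were higher. After rescaling, the number lower in OVA vs. Saline was 5 of 6 for alveolar type 1, 1 of 3 for club, 2 of 4 for endothelial, 1 of 5 for shared epithelial, 1 of 4 for leukocyte and 1 of 4 for mesenchymal markers, while 2 of 4 mesenchymal, 1 of 4 macrophage and 1 of 4 ciliated cell markers were higher. In that form 17.2% of all genes were lower and 24.1% were higher. Ptprc, a general leukocyte marker, was under 1 FPKM on average in each group. The part of the cell composition of the lung in the differences of the surfactant genes was not tested.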

How the data were processed

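Lung RNA of 10 mice was sequenced (Saline n = 3, OVA n = 3, Herb n = 4), and groups were taken from the labels. The authors aligned the reads to mm10 with Hisat2, assembled and quantified transcripts and deposited 1 table of FPKM per transcript. The labels and the study's methods name different RNA and library kits. FPKM of all rows of a symbol were summed, and single rows were also fitted. Groups were compared on log2(FPKM + 1) by limma 3.58.1 under R 4.3.3, where lmFit took all 10 libraries together and eBayes used its trend option. Adjustment was by Benjamini-Hochberg over the 11205 genes, or 30194 rows, that averaged 1 FPKM or more. Fold changes on this scale understate those of low genes. The script was tested on simulated data. A call is an adjusted p under 0.05. Read counts were not used, so no count model was run. Positions and promoter windows are RefSeq entries of GRCm38.p6, and 7 of 10 members had a window. All 10 members were named with their values. Of each pathway list, up to 3 called genes with the largest change in OVA vs. Saline and up to 2 called in Herb vs. OVA were named, and the 5 genes most like the members. The members and lists were chosen with earlier results of these data known. Alternatives were other scalings, pseudocounts, filters, weights, a replicate block, the groups alone, single rows and leaving out each library. Same-numbered libraries did not deviate together (r from -0.009 to 0.095), so the numbers were not treated as pairs.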

Additional observations from a re-analysis of the deposited data

Results flagged for a closer look

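In the Herb group, 3 members had 1 library far from the other 3 by Dixon's test, which flags about 1 in 20 groups by chance. The highest Abca3 value was 1.50 FPKM in Herb 2, with a gap of 0.870 of the range of the group. The highest Nkx2-1 value was 4.05 FPKM in Herb 1, with a gap of 0.905 of the range. The lowest Lpcat1 value was 8.63 FPKM in Herb 3, with a gap of 0.929 of the range, and the assembled model beside that row was at 9.70 FPKM in the same library. The first 2 genes were near the filter of 1 FPKM.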

How the results depend on the processing

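The table holds FPKM without counts, so scaling and the division of fragments between rows could not be settled from reads, and values near 1 FPKM (Abca3, Nkx2-1) are imprecise. Of the 124 counts of called members under another setting, 90 stayed within 1.5 times the count as reported, and all those of OVA vs. Saline over gene sums did. The calls of Sftpa1, Sftpb, Sftpc, Lamp3 and Napsa in OVA vs. Saline held under all 21 settings run for each. The settings that combine rescaling with a floor of 20 FPKM on the mean and those with assembled models were chosen after seeing the data. The cause of the changes was not tested.

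Over gene sums, limma called 0 members in Herb vs. OVA under the 75th percentile (4 at an unadjusted p under 0.05), a common protein-coding sum (3 unadjusted), quantile normalization (2 unadjusted) and the 75th percentile with assembled models (4 unadjusted), and 3 at the 75th percentile with that floor. Of all 11205 genes, 39, 66, 56 and 39 were called higher in the forms without a member called. The models were added to members alone. With that floor 7 members were tested, and 116 of 520 genes were called higher. In Herb vs. Saline the members called were 3 at the 75th percentile, 2 under a common protein-coding sum, 2 under quantile normalization, 3 with no filter, 3 at the 75th percentile with that floor and 2 at the 75th percentile with assembled models. In the same order, genes called lower were 570, 319 and 382 of 11205, 2147 of 20819, 121 of 520 and 569 of 11205. Over single rows, OVA vs. Saline had 5 rows called at the 75th percentile, 5 under a common protein-coding sum and 4 at the 75th percentile with that floor. All rows called lower were 2650 and 1470 of 30194, and 344 of 773 with that floor, where 6 member rows were tested. Herb vs. OVA had 0 under the 75th percentile, a common protein-coding sum and quantile normalization (4, 3 and 4 unadjusted) and 2 at the 75th percentile with that floor. All rows called higher were 76, 58 and 65 of 30194, and 128 of 773 with that floor. Herb vs. Saline had 2 at the 75th percentile, 1 under a common protein-coding sum, 2 under quantile normalization, 2 with no filter and 2 at the 75th percentile with that floor. All rows called lower were 506, 389 and 546 of 30194, 1488 of 57556 with no filter and 123 of 773 with that floor. Leaving out each library gave 5 to 6 members in Herb vs. OVA and 1 to 6 in Herb vs. Saline over gene sums, 0 to 6 rows in Herb vs. OVA (0 without OVA 1, with 5 unadjusted) and 0 to 6 rows in Herb vs. Saline (0 without Saline 2, with 8 unadjusted). In the same order, 3200 to 5013 and 788 to 2801 of all 11205 genes were called. Of all 30194 rows, 186 to 9085 and 147 to 2421 were.

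Same-numbered libraries shared only a number. With the replicate number as a block, 7 members were called in OVA vs. Saline, 5 in Herb vs. OVA and 4 in Herb vs. Saline over gene sums, and over single rows 8, 5 and 1. In the same directions, 6251, 3992 and 1193 of all 11205 genes were called, and 11163, 5649 and 189 of all 30194 rows.

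Sign changes of the log2 difference touched mostly members without a call. In OVA vs. Saline, at the 75th percentile Abca3 was 0.67, Slc34a2 0.10 and Nkx2-1 0.23. Under a common protein-coding sum, Sftpd was 0.12, Abca3 0.90, Slc34a2 0.42, Nkx2-1 0.42 and the row NM_001282071 0.27. Under quantile normalization Sftpd was 0.33, Abca3 0.48, Slc34a2 0.11 and Nkx2-1 0.17, and with assembled models at the 75th percentile Abca3 was 0.33. In Herb vs. OVA, Sftpb was -0.092, Slc34a2 -0.49 and NM_001282071 -0.27 at the 75th percentile, with Sftpb again -0.092 among genes averaging 20 FPKM or more. A common protein-coding sum gave Sftpb -0.27, Slc34a2 -0.66, Lpcat1 -0.12, NM_001282071 -0.44 and NM_147779 -0.13. Quantile normalization gave Sftpb -0.25, Slc34a2 -0.55, Lpcat1 -0.17, Nkx2-1 -0.0068 and NM_001282071 -0.24. Abca3 was 0.70 with assembled models, and with these at the 75th percentile Sftpb was -0.020, Abca3 0.032 and Lpcat1 -0.11. In Herb vs. Saline, Abca3 was 0.065 at the 75th percentile and 0.16 under a common protein-coding sum, and Sftpd was 0.19 under that sum and 0.39 under quantile normalization. Nkx2-1 was -0.78 with assembled models, and at the 75th percentile with them Abca3 was 0.37 and Nkx2-1 -0.34.

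Leaving out each library gave Abca3 values between -0.35 and 0.18 in OVA vs. Saline and between -0.36 and 0.17 in Herb vs. OVA. It gave Slc34a2 values between -0.29 and 0.66 in Herb vs. OVA and Nkx2-1 values between -0.26 and 0.32 in Herb vs. Saline.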
